A study of Mus musculus with 4 samples.

Results

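Deep-layer cortical neuron genes were 10 genes named as markers of layers 5 and 6 of the cerebral cortex: Tbr1, Foxp2, Tle4, Ccn2 and Ntng1 for layer 6 and its border zone 6b, and Fezf2, Bcl11b, Etv1, Pcp4 and Sulf2 for layer 5. Their probe sets were chosen by name alone, taking every probe set that the platform annotation gives to exactly 1 gene symbol. This found 24 of the 45037 probe sets tested, for 9 of the 10 genes, among 18193 genes so measured. All probe sets of Etv1 carried a second symbol, so Etv1 had no member probe set. The arrays held RNA of prefrontal cortex from mice under repeated social threat (labelled HighThreat) and from control mice (labelled LowThreat), with 2 pools of 5 mice in each group. Strain, sex, age and the length of exposure are not stated in the labels used here. Each pool averages 5 animals, so that differences between pools are not differences between animals, and the labels do not say whether pools came from separate cages or days.

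The deep layers hold the neurons whose axons leave the cortex. Layer 5 neurons project to brainstem, spinal cord, striatum and the other hemisphere, and layer 6 holds the corticothalamic neurons that feed back to the thalamus. The thin layer 6b, a remnant of the developmental subplate, lies directly on the white matter, where the myelinated axons run. Tbr1 and Fezf2 are transcription factors that set these fates against each other during development, and the adult neurons keep expressing many of the same factors.

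Values are log2 expression values, in which a difference of 1 is a doubling of signal, and differences are taken only within a probe set. Summed levels of gene lists, given further below, add the signals of different probe sets, so that the brightest genes weigh most in them. The highest of 27 probe sets for Bacillus transcripts, foreign to the mouse, was 4.25 and served as a guide to background. Of the 24 member probe sets, 3 lay at or below that value in all pools (1 each of Foxp2, Tle4 and Ntng1) and are not counted below, which leaves 21. The general neuron list, which includes the vesicular glutamate transporter Slc17a7 and the cortical factor Neurod6, lay above it for all 12 of its genes. The 3′ to 5′ log2 signal ratio of Gapdh, a sign of RNA integrity, lay between -0.05 and 0.03 in the 4 pools, and that of beta-actin between 0.50 and 0.66.

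Among the 9 genes measured, Ccn2 and Tbr1 lay lower in both threat pools than in both control pools, by 1.65-fold and 1.45-fold. The other 7 genes differed by at most 0.19 on the log2 scale by their brightest probe set, meaning the one whose mean over the pools was highest, and none of these 7 probe sets separated the groups. With limma and Benjamini-Hochberg adjustment over the arrays, 0% of the 45037 probe sets passed 0.05, and so no member did. At an unadjusted p under 0.05 limma gave 3 member probe sets, Ccn2, Tbr1 and 1 of Bcl11b, against 10.6% of all probe sets. Of the 21 member probe sets, 2 separated the groups with threat lower, against 19.4% of all probe sets, and 4 did so with threat higher, against 23.9%. These 4 were 3 of Bcl11b and 1 of Ntng1. The counts moved with the scaling: after cyclic loess, 4 were lower and 1 higher, and after median centring, 2 were lower and 7 higher. Shares of all probe sets were not computed under these scalings. Ccn2 and Tbr1 were lower with separate pools under each scaling. On the deposited scale, the shares of member probe sets with separate pools were thus below those of all probe sets in each direction. The shares of all probe sets include those at or below the Bacillus controls. Over all 24 member probe sets, without that filter, 4 were lower and 4 higher with separate pools (16.7% each). Ccn2 alone also reached 1.5-fold, as 0.719% of all probe sets did with threat lower.

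**Figure D1:**
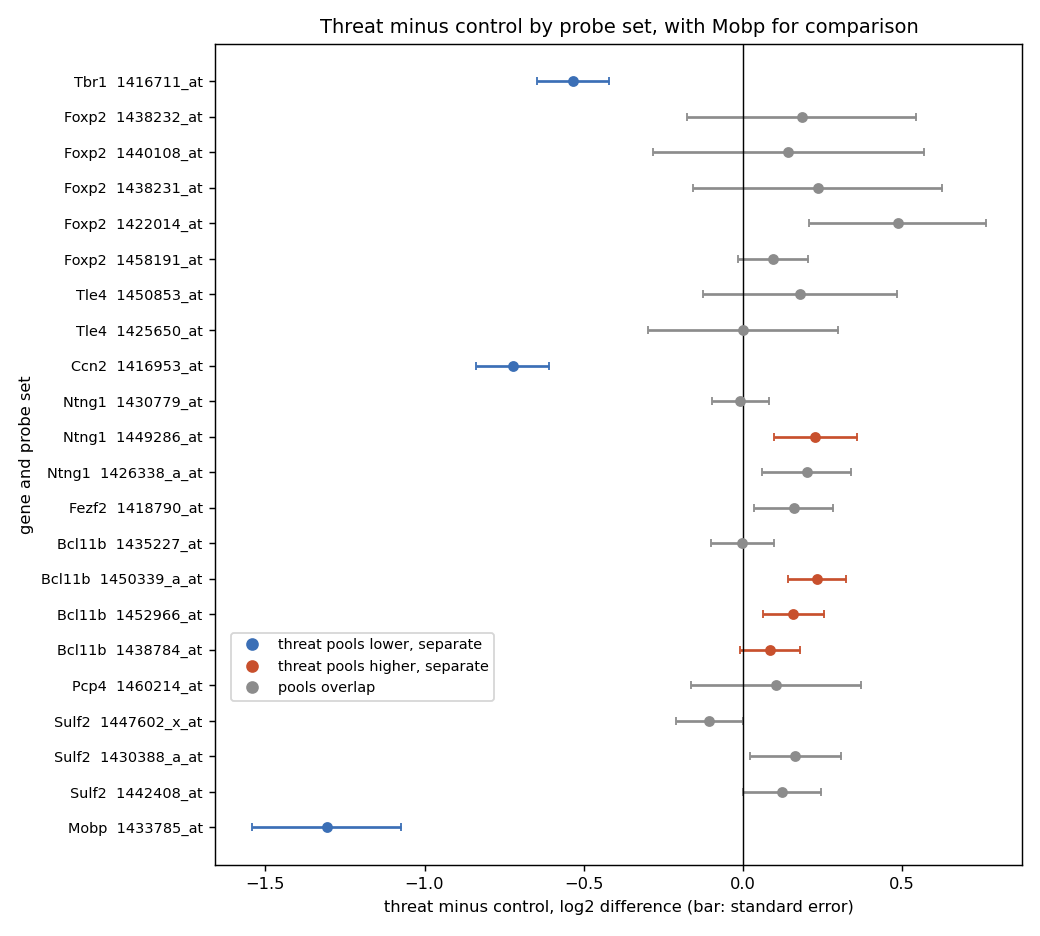
Threat minus control on the log2 scale for the 21 member probe sets above the Bacillus controls and for the brightest Mobp probe set, with limma's standard error as bars. Ccn2 (-0.72) and Tbr1 (-0.53) lie to the left with separate pools, Mobp lies farther left at -1.31, and the wide bars belong to probe sets of Foxp2, Tle4 and Pcp4, whose control pools lay far apart.

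Ccn2 encodes connective tissue growth factor, a secreted matricellular protein that marks layer 6b neurons in adult cortex and is also made by cells of blood vessels. Its log2 expression was 10.25 and 10.39 in control pools 1 and 2, and 9.70 and 9.50 in threat pools 1 and 2. Both threat pools were low, and the gap between the groups was wider than the gap within either group. The means were 10.32 ± 0.10 in control and 9.60 ± 0.14 in threat (SD, n = 2 pools each), a log2 difference of -0.72 ± 0.12 (SE; limma, adjusted p = 0.396). Leaving out each pool in turn kept the difference between -0.83 and -0.62. In bulk tissue, fewer cells of a type and less RNA per cell cannot be told apart. The named genes with the pattern most like that of Ccn2 over the 4 pools were Akirin1, Serinc3, Plekha3, Qk and Alas2, at Euclidean distances of 0.078 to 0.116 between centred log2 values. Qk encodes an RNA-binding protein known for its role in myelin gene splicing, and Alas2 is the erythroid enzyme of haem synthesis. The search, here and for Tbr1 below, covered 20588 probe sets over only 4 pools. A close pattern is therefore not evidence of a shared role.

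Tbr1 encodes a T-box transcription factor that specifies layer 6 corticothalamic neurons and remains expressed in them. It measured 9.22 and 8.997 in control pools 1 and 2, and 8.53 and 8.62 in threat pools 1 and 2. The groups did not overlap, and threat pool 1 was the lowest. The means were 9.11 ± 0.16 and 8.57 ± 0.07 (SD, n = 2 pools each), a log2 difference of -0.53 ± 0.11 (SE; limma, adjusted p = 0.417). Without each pool in turn the difference lay between -0.65 and -0.42. Nearest to Tbr1 in pattern over the 4 pools were Trim59, Rpl27a, C1qb, Smim10l1 and Spred1, at distances of 0.019 to 0.057. C1qb is a complement subunit made by microglia.

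Tbr1 shared its order of pools with Mobp, the myelin gene described further below, and the promoters of these 2 genes are shown to let a reader compare them. Of the 10 genes, 8 had an entry among the RefSeq promoters of GRCm38.p6, each running from 250 bases before to 50 after a transcript start, and Ccn2 and Foxp2 did not. The windows are chr2:61804203-61804502 (plus strand) for Tbr1 and chr9:120149492-120149791 (plus strand) for Mobp. Capitals mark the letters ACAAAG or, on the other strand, CTTTGT, a core bound by SOX proteins such as Sox10, the SOX factor of oligodendrocytes.
Tbr1: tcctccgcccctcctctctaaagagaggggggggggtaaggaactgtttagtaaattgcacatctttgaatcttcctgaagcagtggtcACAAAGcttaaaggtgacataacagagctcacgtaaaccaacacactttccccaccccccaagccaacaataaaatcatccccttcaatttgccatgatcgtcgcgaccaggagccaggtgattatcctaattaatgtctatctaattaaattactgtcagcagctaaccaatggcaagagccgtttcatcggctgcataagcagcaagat
Mobp: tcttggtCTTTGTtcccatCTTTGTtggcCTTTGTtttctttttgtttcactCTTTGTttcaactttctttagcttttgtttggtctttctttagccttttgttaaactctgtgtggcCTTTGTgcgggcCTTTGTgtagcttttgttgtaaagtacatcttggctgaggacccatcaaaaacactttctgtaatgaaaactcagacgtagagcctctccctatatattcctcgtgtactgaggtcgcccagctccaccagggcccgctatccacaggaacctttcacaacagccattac
The Mobp window held 6 such matches, all on the strand opposite to the gene, and the Tbr1 window held 1. This motif was chosen after the letters of the Mobp window were seen. A match was present in 18.7% of 32851 promoter windows, and 1 window, that of Mobp, held 6 or more. Among the 11 windows of member genes, that of Tbr1 was the 1 with a match. The T-box element GGTGTGA, searched on both strands, was in 0 of the 11 member windows and in 3.98% of all windows. The E-box CANNTG, bound by basic helix-loop-helix factors, was in 6 of the 11 and in 72.3% of all. No match of one motif overlapped another in the 2 windows printed, and matches of letters are not evidence of binding.

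Foxp2 and Tle4, the other transcriptional regulators of layer 6, showed a spread between the control pools that was larger than any difference between the groups. Foxp2 is a forkhead factor of corticothalamic neurons that is also expressed in striatum and thalamus. Its brightest probe set measured 8.91 and 7.82 in control pools 1 and 2, and 8.75 and 8.35 in threat pools 1 and 2. Control pool 2 was the lowest and control pool 1 the highest, with both threat pools between them. The difference between threat and control was 0.19 ± 0.36 (SE; limma, adjusted p = 0.868), and its sign turned when control pool 2 (-0.36) or threat pool 1 (-0.01) was left out. Control pool 2 was the lowest pool in 4 of the 5 Foxp2 probe sets above the Bacillus controls, against 28.3% of all probe sets, the exception lying near those controls at 4.20 to 4.45.

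Tle4 encodes a Groucho-family corepressor that partners with layer 6 factors. It measured 10.13 and 9.28 in control and 10.12 and 9.66 in threat, again with control pool 2 lowest. Its difference of 0.18 ± 0.30 (SE) did not pass (limma, adjusted p = 0.845), and likewise became -0.25 or -0.05 when 1 of these pools was omitted. The other Tle4 probe set above background had the same lowest pool, with 7.36, 6.41, 6.85 and 6.93 in control pools 1 and 2 and threat pools 1 and 2.

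Ntng1, the netrin-G1 adhesion protein, best known from thalamic axons, was nearly level over the pools by its brightest probe set, at 8.33 and 8.38 in control and 8.37 and 8.34 in threat. The difference was -0.01 ± 0.09 (SE). A second probe set had separate pools, with 7.42 and 7.74 in control and 7.79 and 7.82 in threat. Its log2 difference of 0.23 did not pass (limma, adjusted p = 0.547). The third probe set measured above background differed by 0.20 with overlapping pools.

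**Figure D2:**
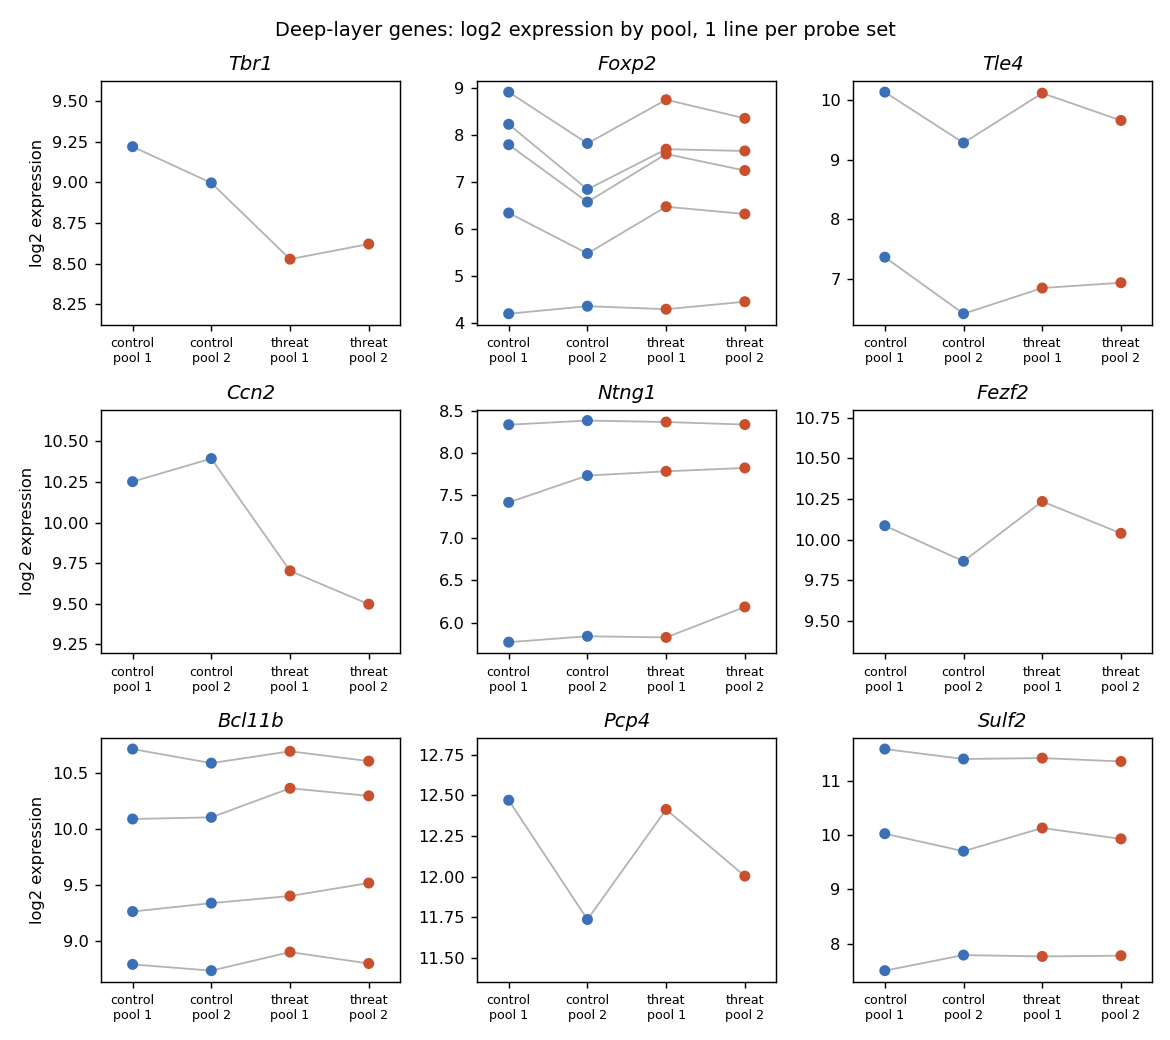
Log2 expression in each of the 4 pools for the 9 measured member genes, with 1 line for each probe set above the Bacillus controls, control pools in blue and threat pools in red, and an axis of its own for each gene. Ccn2 and Tbr1 are lower in both threat pools, while Foxp2, Tle4 and Pcp4 dip in control pool 2.

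Among the layer 5 members, Fezf2, the zinc finger factor that directs the subcerebral projection fate, measured 10.09 and 9.87 in control and 10.23 and 10.04 in threat. Pool 1 was the higher in each group and the groups overlapped. The difference was 0.16 ± 0.12 (SE; limma, adjusted p = 0.644).

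Bcl11b, also called Ctip2, acts downstream of Fezf2 in subcerebral neurons and is strongly expressed in striatum. Its 4 probe sets disagreed in part: the one with the highest mean was level (10.72 and 10.59 in control, 10.70 and 10.61 in threat), while the other 3 had separate pools with threat higher. The largest of these differences, 0.23 ± 0.09 (SE), came from 10.09 and 10.11 in control and 10.37 and 10.30 in threat (limma, adjusted p = 0.466). The other two differed by 0.16 and 0.09. After cyclic loess, only the probe set with the difference of 0.23 still separated the groups with threat higher.

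Pcp4, a small regulator of calmodulin that is abundant in layer 5 and in striatum, measured 12.47 and 11.74 in control and 12.41 and 12.00 in threat. The pattern had control pool 2 lowest, as for Foxp2 and Tle4. The difference of 0.10 ± 0.27 (SE) became -0.26 on leaving out control pool 2 and -0.10 on leaving out threat pool 1.

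Sulf2, an extracellular sulfatase that edits heparan sulfate, differed by -0.11 at its brightest probe set, whose pools read 11.58 and 11.40 in control and 11.41 and 11.35 in threat. Its 2 other probe sets differed by 0.17 and 0.12, so the sign of Sulf2 depended on the probe set. None of the 3 separated the groups.

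Without the members, the wider lists of layer 6 and layer 6b genes had medians near 0 and few genes with separate pools. Of the other 13 layer 6 corticothalamic genes, 0 separated the groups with threat lower and 2 did so with threat higher; their median log2 difference was 0.10, against 0.02 over all 18193 genes by 1 probe set each. In that table of 1 probe set a gene, the groups were separate in 18.8% of genes with threat lower, and in 26.2% with threat higher. The 2 with separate pools were Ntsr1, the neurotensin receptor used to mark corticothalamic neurons, and Sox5, a SOX factor that controls the sequence in which deep-layer neurons are generated. Ntsr1 measured 7.38 and 7.43 in control and 7.91 and 7.78 in threat (0.43 ± 0.10 SE, limma, adjusted p = 0.423), and Sox5 differed by 0.33. Sla, an adaptor protein, differed by 0.34 ± 0.48 (SE) with overlapping pools, and the kainate receptor subunit Grik3 by -0.22. The median of the whole layer 6 corticothalamic list was 0.10, and it moved to 0.39 without control pool 1 and to -0.20 without control pool 2.

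Of the 10 layer 6b and subplate genes other than Ccn2, 2 (20%) separated the groups with threat lower, against 18.8% of all genes. In the other direction 1 (10%) did so, against 26.2%, and the median of the 10 was -0.05. Lpar1, a lysophosphatidic acid receptor of subplate neurons that oligodendrocytes also express, measured 8.85 and 8.84 in control and 8.01 and 8.54 in threat (-0.57 ± 0.18 SE, limma, adjusted p = 0.44), with -0.31 when threat pool 1 was left out. Trh, the precursor of thyrotropin-releasing hormone, was at -0.32 with separate pools, and Svil, an actin-binding protein, at -0.33 with overlapping pools. Cplx3, a complexin, and Nxph4, a neurexophilin, both standard markers of layer 6b, were at -0.03 and -0.07, and Moxd1 at -0.01. Cplx3, Nxph4 and Moxd1 were picked out after their values were seen. The list thus held both genes lower in threat with separate pools, as Ccn2 was, and genes near 0. Without Ccn2, its share lower with separate pools was near that of all genes.

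Most genes of the layer 5 list other than the members read higher in both threat pools, and no gene passed after adjustment. Of these 15 genes, 12 separated the groups with threat higher, against 26.2% of all genes and 33.1% of the 11931 genes whose level was above the median. None did so in the other direction. The median log2 difference of the 15 was 0.25. At an unadjusted p under 0.05 limma gave 7 of the 15, all higher, against 4.9% of all genes. The lists, this one included, were chosen with earlier results of these data known. These counts therefore describe the list and are not an independent test. Tox, a nuclear high-mobility-group protein, measured 8.68 and 8.74 in control and 9.18 and 9.36 in threat (0.56 ± 0.10 SE, limma, adjusted p = 0.413). Stac differed by 0.36, Deptor, an inhibitor of the kinase mTOR, by 0.35, and Chst8, a carbohydrate sulfotransferase, by 0.33, each with separate pools. Stac lay near the highest Bacillus value of 4.25, at 4.57 and 4.43 in control and 4.78 and 4.955 in threat. The count of 12 came to 8 after cyclic loess and to 12 after median centring. With each pool left out it lay between 12 and 13, where it could not fall, since fewer pools have to be separate. The 4 measured layer 5 members had a median of 0.05 and none had separate pools by their brightest probe set. The median of 18 upper-layer genes was 0.05, with 2 higher and 4 lower with separate pools, led by Otof (0.56, overlapping pools), Rspo1 (-0.40), Lmo4 (0.28) and Pou3f3 (-0.24). The median of 12 general neuronal genes was -0.02. Of these, 5 (41.7%) had separate pools with threat lower, against 18.8% of all genes, and 3 (25%) with threat higher, against 26.2%. The largest differences in this list were those of Neurod6 (-0.39), Slc17a7 (0.23), Stmn2 (0.17) and Map2 (-0.15).

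**Figure D3:**
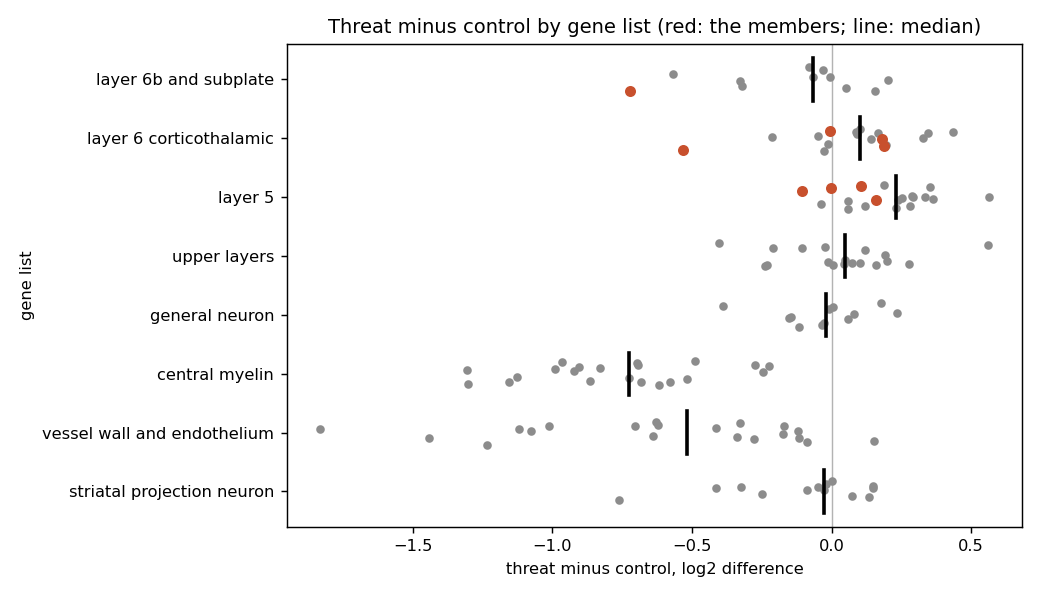
Threat minus control on the log2 scale for each gene of 8 lists, by the brightest probe set, with members in red and each list's median as a line. The layer 5 list is centred at 0.23 and the central myelin list at -0.72, while Ccn2 and Tbr1 lie to the left of the other genes of the layer 6b and layer 6 lists.

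Whether layer 6 genes moved with myelin genes was examined pool by pool. Mobp, the myelin-associated oligodendrocyte basic protein, measured 11.41 and 10.85 in control pools 1 and 2, and 9.60 and 10.05 in threat pools 1 and 2 by its brightest probe set. Its pools ran, from high to low, control 1, control 2, threat 2, threat 1. Of its 5 probe sets 4 had this order, and the dimmest had that of Ccn2. The order was found in 13 of the 20 other measured genes of the central myelin list and in 5.1% of all genes. It requires separate pools with threat lower, and 927 of the 3417 genes with such pools had it. A shared order is thus common among genes that are lower in both threat pools. Tbr1 had the same order, and it was the 1 of the 9 member genes that did. Between the 2 control pools Tbr1 differed by -0.22 (pool 2 minus pool 1) and Mobp by -0.57, and between the 2 threat pools by 0.09 and 0.45. Ccn2 was lower in threat like Mobp but, against the brightest Mobp probe set, ran the other way within both groups, by 0.14 between the control pools and -0.20 between the threat pools. Lpar1 was the 1 of 11 layer 6b genes with the order of Mobp.

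Threat minus control was -1.31 ± 0.23 (SE) for Mobp, -0.72 for Ccn2 and -0.53 for Tbr1. The central myelin list had 20 of 21 genes with separate pools, all lower, and a median of -0.72, led by Mobp, the tight junction protein Cldn11 (-1.30), the proteolipid Mal (-1.16) and Ugt8a (-1.13), which makes myelin galactolipid. The layer 6 members Foxp2, Tle4 and Ntng1 were at 0.19, 0.18 and -0.01, with overlapping pools. In threat pool 1, where Mobp was lowest, Foxp2 and Tle4 read 8.75 and 10.12, against 8.91 and 10.13 in control pool 1. These comparisons rest on the same 4 arrays, which are too few for a correlation.

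**Figure D4:**
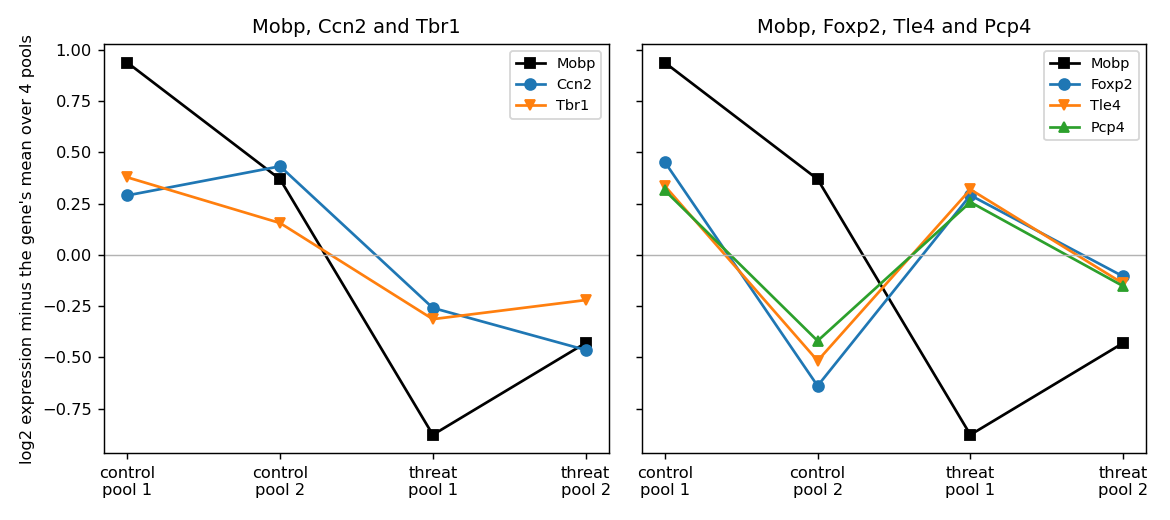
Log2 expression in each pool after subtracting each gene's mean over the 4 pools, for Mobp with Ccn2 and Tbr1 on the left and with Foxp2, Tle4 and Pcp4 on the right. Ccn2 and Tbr1 step down from control to threat as Mobp does, while Foxp2, Tle4 and Pcp4 are lowest in control pool 2 and high in threat pool 1, where Mobp is lowest.

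The dip of Foxp2, Tle4 and Pcp4 in control pool 2 was found in much of the layer 6 corticothalamic list. Control pool 2 lay below control pool 1 by 1.09 for Foxp2, 0.85 for Tle4 and 0.73 for Pcp4 on the log2 scale. Of the 13 genes of the list that are not members, 10 were lower in control pool 2 than in control pool 1, against 55.4% of all genes, and 4 were lower by at least 1.5-fold, against 0.923%. Control pool 2 was the lowest of the 4 pools in 9 of the 13, against 31.3% of all genes. Hs3st4, a heparan sulfate sulfotransferase, read 10.001, 8.55, 9.60 and 9.15 in control pools 1 and 2 and threat pools 1 and 2, and Rprm, the cell cycle inhibitor reprimo, 10.44, 9.26, 10.16 and 9.92. These 2 genes were named after their values were seen. Tbr1 differed by -0.22 between the control pools and Ntng1 by 0.05, so these layer 6 members did not share the dip in full. With 1 array per pool, differences between pools have no test.

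Markers of other cells and regions also differed between the pools. Of 18 upper-layer genes, 4 were lower in control pool 2 than in control pool 1, and 15 were higher in threat pool 2 than in threat pool 1, against 42.7% of all genes. In the layer 6 corticothalamic list, 4 of 17 were higher in threat pool 2. Of the 13 striatal genes measured, 11 were lower in control pool 2, with a summed level on the log2 scale of 12.39 and 11.97 in control and 12.07 and 11.95 in threat. All 13 striatal genes had at least 1 pool above the Bacillus controls. Between threat and control, 3 striatal genes separated the groups in each direction, and the median difference over the 13 was -0.03. The 4 with the largest differences were the phosphodiesterase Pde10a (-0.76), the opioid precursor Penk (-0.42, and -0.14 without control pool 1), Tac1 (-0.32, overlapping pools) and Gpr6 (-0.25, and -0.09 without control pool 1). Those higher with separate pools, Rxrg, Rarb and Pdyn, differed by 0.13 to 0.15 and are named to complete the count. The thalamus list had a median difference of -0.11 over 10 genes, with 4 lower (Gbx2 among them) and 0 higher with separate pools. The shares over all genes were 18.8% and 26.2%. In the thalamus list, Prkcd was at -0.90, Zic1 at -0.89 and Plekhg1 at -0.46, each with separate pools. Prkcd was high in control pool 1 (7.92, against 6.74 in control pool 2) and differed by -0.31 without it, and Plekhg1 differed by -0.09 without threat pool 1. Of its 10 genes 1, Gbx2, lay at or below the Bacillus controls in all pools. The summed level was 11.66 and 11.40 in control and 11.12 and 11.29 in threat. Zic1, the brightest gene of the list, weighs most in this sum, with 10.38 and 10.18 in control and 9.18 and 9.60 in threat. Apart from the 4 lower genes, those of the list had overlapping pools. The glutamate transporter Slc17a6, strong in thalamus, read 8.94, 7.73, 8.76 and 8.49 in the order of pools used above. The part of these regions in the levels of Foxp2, Pcp4, Bcl11b and Ntng1 was not tested.

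Of 20 genes of vessel wall and endothelium, 0 were lower in control pool 2 than in control pool 1, against 55.4% of all genes, and 18 were higher in threat pool 2 than in threat pool 1, against 42.7%. Separate pools with threat lower were found for 11 of the 20, against 18.8%. Their summed level was 12.69 and 13.49 in control and 12.20 and 12.74 in threat. The genes that led the list were Acta2 (-1.83), Tagln (-1.44), Myh11 (-1.24) and Tpm2 (-1.12), the contractile proteins of smooth muscle, and without control pool 2 their differences lay between -1.19 and -0.55. The summed level of the myelin list was 15.09 and 14.81 in control and 14.05 and 14.32 in threat. The part of myelin and vessel content in the differences of Ccn2 and Tbr1 was not tested.

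**Figure D5:**
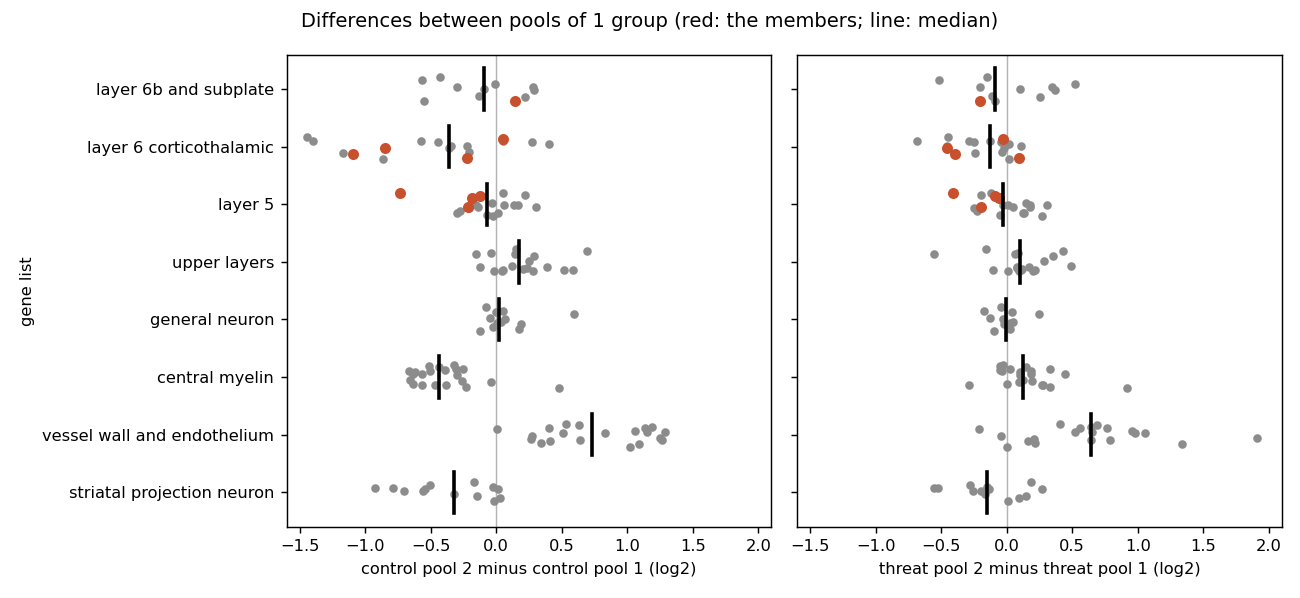
Log2 difference between the 2 control pools (left) and between the 2 threat pools (right) for each gene of 8 lists, with members in red and medians as lines. The layer 6 corticothalamic list lies below 0 between the control pools (median -0.36), the upper-layer list above 0 (0.18) and the vessel list farthest above 0 (0.73).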

How the data were processed

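The data were 4 Affymetrix MOE430 2.0 arrays of mouse prefrontal cortex, each of RNA pooled from 5 mice, with 2 pools per group. The authors deposited 1 log2 expression value per probe set and array, and the submitters' processing notes name RMA, without version or settings in what was used here. RMA commonly gives arrays one distribution, which would hide a shift shared by most transcripts.

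Of 45101 probe sets, 64 controls were left out. The platform annotation gave 34945 of the rest 1 symbol, 932 several and 9160 none. Threat was compared with control in limma 3.58.1 under R 4.3.3 (lmFit, eBayes, 2-sided, Benjamini-Hochberg over 45037 probe sets), with a median standard error of 0.108. The fit was tested on simulated data. The number of arrays limits the precision, and p-values measure the spread between pools only. Pools were called separate when the ranges of the 2 groups did not overlap. A gene was represented by the probe set whose mean was highest. Named were all members, up to 4 genes per list with the largest difference, and for Ccn2 and Tbr1 the 5 genes nearest in pattern among named probe sets above the median level of 5.56. Exceptions are stated where they occur. Members and lists were chosen with earlier results of these data known. Claustrum, interneuron and oligodendrocyte precursor lists are described in the closing section. Alternatives were cyclic loess, median centring, an intensity trend, the pool number as a block, filters and averages of probe sets, other thresholds, and leaving out each pool.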

Additional observations from a re-analysis of the deposited data

How the results depend on the processing

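No probe set passed the adjusted p of 0.05 in limma's test under any of the alternatives run, nor 0.10, with 4774 probe sets at an unadjusted p under 0.05. Ccn2 and Tbr1 kept their direction and separate pools under every alternative. Only cyclic loess and median centring could have changed this. Each gene has 1 member probe set, and leaving out a pool cannot undo separate pools. A block for the pool number cannot change log2 differences in this balanced design, so those of Ccn2 and Tbr1 stayed at -0.72 and -0.53. With this block limma called 0 probe sets, with 6054 at an unadjusted p under 0.05. The gaps between pools 2 and 1 of the 2 groups correlated at 0.33 across probe sets, which are not independent, and the labels give the numbers no further meaning. The 374 probe sets with separate pools and 1.5-fold became 3186 at the lower fold threshold tried and 673 to 818 with a pool left out, where fewer pools have to be separate.

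Member probe sets with separate pools numbered 2 lower and 4 higher. After cyclic loess they were 4 and 1, and after median centring 2 and 7. Leaving out a pool gave 2 to 10 lower and 6 to 14 higher. There were 4 lower and 14 higher without control pool 1, and 10 lower and 8 higher without control pool 2. Without threat pool 2, 7 were higher. With a pool left out neither count can fall, since fewer pools have to be separate. The matching shares of all probe sets were not computed for these alternatives. Scaling moved the median of probe sets above the median level from 0.06 to 0.01 (cyclic loess) or 0.09 (median centring).

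With each pool left out, Foxp2 ran from -0.36 to 0.73, Tle4 from -0.25 to 0.61, Pcp4 from -0.26 to 0.47, Ntng1 from -0.032 to 0.017 and Bcl11b from -0.065 to 0.062. The negative values of Foxp2, Tle4 and Pcp4 came on omitting control pool 2 (-0.36, -0.25 and -0.26) or threat pool 1 (-0.01, -0.05 and -0.10). Ntng1 was above 0 on omitting control pool 2 (0.017) or threat pool 2 (0.0076), and Bcl11b on omitting control pool 1 (0.062) or threat pool 2 (0.04). After median centring, Ntng1 was at 0.028 and Bcl11b at 0.035. Averaged over all probe sets, Ntng1 was at 0.064, Bcl11b at 0.12 and Sulf2 at 0.062, and without probe sets ending in _x_at or _s_at Sulf2 was at 0.17.

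The median of the layer 5 list was 0.16 after cyclic loess, 0.27 after median centring, 0.16 by the mean of probe sets and 0.20 to 0.24 with a pool left out. With a pool left out, the layer 6 corticothalamic median ran from -0.20 to 0.39 and the layer 6b median from -0.22 to -0.060. The causes were not tested. Of 216 values under alternatives, 179 were labelled as the same, 21 as moved and 16 as reversed in sign. Log2 differences of genes were judged by sign, list medians by their spread between pools, and counts by their ratio to the main count. The gaps between the control pools of Foxp2, Tle4 and Pcp4 after scaling were labelled as the same without a rule. Many of the 179 could not differ. The intensity trend, the block for the pool number and the filter for probe sets above the median leave the log2 difference of each gene listed as it was. Leaving out a pool cannot reverse the sign of a gene with separate pools. The total of 179 is therefore not a measure of robustness.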

Other observations

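The 3 probe sets annotated to both Etv1 and Gm5454 belonged to no comparison above. Etv1 is the ETS factor of layer 5 neurons. The one with the highest mean read 10.02 and 10.26 in control pools 1 and 2, and 10.37 and 10.49 in threat pools 1 and 2. A second read 8.91, 9.24, 9.18 and 9.09 in the same order. The third reached 4.20, below the brightest Bacillus probe set.

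Claustrum and endopiriform genes, which lie beside the deep layers of lateral cortex, had a median log2 difference of 0.08 over 8 genes, with 2 higher and 0 lower with separate pools. The differences were 0.31 for Rgs12, 0.18 for Gnb4 and 0.15 for Lxn. Interneuron genes had a median of -0.03 over 12 genes, with 3 higher and 2 lower with separate pools. Adarb2 was at 0.54, Gad1, an enzyme of GABA synthesis, at -0.42, and Tac2, the neurokinin B precursor, at 0.34, each with separate pools. Pvalb was at -0.30 with overlapping pools. Leaving out control pool 1 gave 0.31 for Adarb2, 0.09 for Tac2 and 0.02 for Pvalb. Oligodendrocyte precursor genes (10 measured) had a median of -0.09. Separate pools were found for 2 with threat lower and for 1 with threat higher. The list was led by Enpp6 (-0.44), Olig1 (-0.37, overlapping pools) and Vcan (0.22). For each of these lists, the matching shares over all genes were 18.8% with threat lower and 26.2% with threat higher.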
